A study of Mus musculus with 16 samples.

Results

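A set of 5 genes whose transcript level was ordered along Oct4-GFP brightness of cultured male germline stem cells were described across 12 RNA libraries: Cebpb, Kctd12, 1700012H05Rik (current symbol Rbmxl2), Atp8b2 and 5033414K04Rik (current symbol Pid1). They are 5 of the 27128 genes in the deposited tables and were chosen by their measured values in the 3 sorted libraries (GFP-low, GFP-mid, GFP-high), so their levels in those are a description and support nothing further. Within the sort, Cebpb, Kctd12 and Rbmxl2 were highest in GFP-high, and Atp8b2 and Pid1 were highest in GFP-low. All 5 averaged at least 1 CPM (counts per 1000000 counts of a library) over the 12 libraries, as did 14301 genes in all. They would have passed that filter in the 9 libraries outside the sort as well, where their mean levels were 4.44, 1.73, 12.2, 48.0 and 2.70 CPM in the order above.

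The cells were Oct4-GFP+ and KIT- germ cells of postnatal day 5.5 mice (B6;CBA-Tg(Pou5f1-EGFP)2Mnn/J background), grown in StemPro-34 SFM, a serum-free medium, with the growth factors GDNF, EGF and bFGF. All 12 samples carried the same transgene, in which the regulatory sequence of Pou5f1 (Oct4) drives enhanced green fluorescent protein, so GFP reports that sequence and not the Oct4 protein. One experiment followed cells from mouse embryonic fibroblast (MEF) feeders at day 0 to days 4 and 9 on Matrigel, a basement membrane extract. Another set an epithelial-like culture on 0.1 µg/cm2 Matrigel against a mesenchymal-like culture on 10 µg/cm2, the third sorted cells grown on 10 µg/cm2 into fractions of low, mid and high GFP, and the fourth treated cells on MEF with DMSO or with 0.5, 1 or 2 µM UNC0638, an inhibitor of the histone methyltransferases G9a and GLP, for 48 hours. The labels do not say how many animals or cultures went into a library. Each group held 1 library: differences were not checked by replicates, no difference between groups could be tested, no trend over dose was fitted, and intervals cover counting error only.

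Oct4 is a transcription factor of pluripotent cells and of the early germ line, and undifferentiated spermatogonia keep expressing it. Cultures of these stem cells depend on GDNF, which signals through its co-receptor Gfra1 and the kinase Ret. The 5 genes belong to different families. Cebpb encodes C/EBPβ, a basic leucine zipper transcription factor made in activating and inhibitory isoforms from a single mRNA. Kctd12 encodes an auxiliary subunit of GABA-B receptors. Rbmxl2 encodes hnRNP G-T, a germ-cell RNA-binding protein that derives from a retroposed copy of the X-linked gene Rbmx. Atp8b2 encodes a P4-ATPase, a class of pumps that move phospholipids to the cytosolic leaflet of membranes, and Pid1 encodes an adaptor with a phosphotyrosine interaction domain.

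By their RefSeq positions on assembly GRCm38.p6, the 5 genes lie on 5 different chromosomes: Cebpb at chr2:167688915-167690432, Kctd12 at chr14:102976581-102982637, Rbmxl2 at chr7:107209445-107210916, Atp8b2 at chr3:89939481-89963338 and Pid1 at chr1:84036293-84339842. The 3 genes that were higher in GFP-high have little or no intron sequence. The genomic span was 1.01 times the deposited transcript length for Cebpb, 1.00 times for Kctd12 and 1.00 times for Rbmxl2, which leaves no room for an intron of ordinary size. For the falling genes the ratio was 4.18 for Atp8b2 and 116 for Pid1. A span within 1.05 times the transcript length was found for 202 of 12179 kept genes with a known span (1.66%). Among genes ordered through the 3 fractions and at least 2-fold higher in GFP-high it was found for 33 of 736 (4.48%), and among those at least 2-fold lower for 6 of 269 (2.23%). This feature was picked out after the values were seen. The 33 include Cebpb, Kctd12 and Rbmxl2, and the ordered genes were defined on the libraries that chose the members, so nothing is read from these shares.

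The 250 bases before the annotated starts of the 3 rising genes are shown so that an Oct4-type octamer or a GC box in them can be read directly. They are from RefSeq (GRCm38.p6), 5′ to 3′ on the gene's own strand, with capitals marking the GC box and the octamer on either strand. Cebpb is at chr2:167688665-167688914 on the plus strand, Kctd12 at chr14:102982638-102982887 on the minus strand and Rbmxl2 at chr7:107209195-107209444 on the plus strand.
Cebpb: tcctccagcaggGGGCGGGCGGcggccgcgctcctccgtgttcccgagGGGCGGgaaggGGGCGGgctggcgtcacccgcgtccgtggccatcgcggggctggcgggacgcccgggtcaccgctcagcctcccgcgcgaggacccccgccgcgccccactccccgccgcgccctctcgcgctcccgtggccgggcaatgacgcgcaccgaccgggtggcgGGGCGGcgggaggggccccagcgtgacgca
Kctd12: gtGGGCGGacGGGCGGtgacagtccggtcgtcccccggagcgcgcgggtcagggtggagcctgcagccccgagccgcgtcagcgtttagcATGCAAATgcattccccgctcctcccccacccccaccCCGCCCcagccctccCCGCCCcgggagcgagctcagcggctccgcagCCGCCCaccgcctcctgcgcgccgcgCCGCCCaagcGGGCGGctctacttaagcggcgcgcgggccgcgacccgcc
Rbmxl2: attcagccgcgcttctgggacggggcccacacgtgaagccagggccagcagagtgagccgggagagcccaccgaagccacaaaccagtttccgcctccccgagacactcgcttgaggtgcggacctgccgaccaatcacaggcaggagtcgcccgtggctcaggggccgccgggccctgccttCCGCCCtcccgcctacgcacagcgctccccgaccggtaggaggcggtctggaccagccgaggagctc

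In all, 6 motifs were searched on both strands: the octamer ATGCAAAT, a C/EBP site TTGCNNAA, the cyclic AMP element TGACGTCA, the TATA box TATAAA, the GC box GGGCGG and a STAT site TTCNNNGAA. Of 32851 promoters in the RefSeq table, 1.60% held the octamer in these 250 bases, 9.56% the C/EBP letters, 1.55% the cyclic AMP element, 12.4% the TATA box, 32.7% the GC box and 7.02% the STAT letters. The 5 genes had 6 promoters in the table, with Atp8b2 listed at 2 starts, and all 6 held a GC box. Kctd12 held the octamer, starting 160 bases before its start, and the other 5 promoters did not. None of the 6 held the C/EBP, cyclic AMP, TATA or STAT letters in the 250 bases. Cebpb had a TATA box that began 22 bases after the start, outside that window. GC content was 64.8% to 81.6%, against a median of 52.4% over all promoters. A match describes these letters and is not evidence of binding.

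The labels of the sort were first checked on Pou5f1 itself. Pou5f1 was at 83.9 CPM in GFP-low, 176 in GFP-mid and 367 in GFP-high, a 4.37-fold range from low to high (95% counting interval 4.02 to 4.76). The steps were of equal size, with 50.3% of the log2 change between low and mid. In the 9 unsorted libraries Pou5f1 was at 43.5 to 77.0 CPM, below all 3 fractions.

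Cebpb was at 0 counts in GFP-low, 66 counts (5.23 CPM, 6.53 TPM) in GFP-mid and 115 counts (12.2 CPM, 16.3 TPM) in GFP-high. GFP-low was the lowest of all 12 libraries and GFP-high the highest. Taking 3 counts in GFP-low as the smallest visible level, Cebpb was at least 13.9-fold higher in GFP-mid and at least 32.5-fold higher in GFP-high. Counting error in both libraries gave lower 95% limits of 11.0-fold and 26.0-fold for these ratios. GFP-high exceeded GFP-mid 2.34-fold (interval 1.71 to 3.21). Kctd12 was at 5 counts (0.627 CPM, 0.170 TPM) in GFP-low, 82 counts (6.49 CPM, 1.84 TPM) in GFP-mid and 135 counts (14.3 CPM, 4.32 TPM) in GFP-high. It was 22.9-fold higher in GFP-high than in GFP-low (9.56 to 71.5), and GFP-mid and GFP-high were its highest libraries among the 12. From mid to high it was 2.21-fold higher (1.66 to 2.94), a call that was lost with the deposited TPM (log2 ratio 0.91). With a pseudocount of 5 the mid to high calls of both Cebpb and Kctd12 were lost, at 0.75 each.

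Rbmxl2 was at 7 counts (0.878 CPM, 1.08 TPM) in GFP-low, 235 counts (18.6 CPM, 23.8 TPM) in GFP-mid and 188 counts (20.0 CPM, 27.3 TPM) in GFP-high. GFP-low was the lowest of the 12 libraries, and the other fractions were near each other. The high to low ratio was 22.7-fold (10.8 to 57.3), but GFP-high exceeded GFP-mid 1.07-fold with an interval of 0.880 to 1.30, so a step between these fractions was not detectable at this depth. By shape, 97.2% of the change of Rbmxl2 in log2(CPM + 1) fell between low and mid, against 68.1% for Kctd12, and no share is given for Cebpb because its 0 counts in GFP-low leave it to the pseudocount. All 12 expected counts of Rbmxl2 were whole numbers, and how reads were divided between it and its parent gene Rbmx was not tested. Rbmx itself ranged from 4.58 to 13.4 CPM over the 12 libraries and was at 9.53, 11.6 and 9.87 CPM from the low to the high fraction.

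Atp8b2 was at 800 counts (100 CPM, 29.0 TPM) in GFP-low, 463 counts (36.7 CPM, 11.1 TPM) in GFP-mid and 70 counts (7.43 CPM, 2.38 TPM) in GFP-high. It was lower at both steps, 2.74-fold from low to mid (2.44 to 3.07) and 4.93-fold from mid to high (3.83 to 6.44), which made 13.5-fold in all (10.6 to 17.5). Pid1 was at 220 counts (27.6 CPM, 18.1 TPM) in GFP-low, 264 counts (20.9 CPM, 14.3 TPM) in GFP-mid and 20 counts (2.12 CPM, 1.55 TPM) in GFP-high. It was 13-fold lower in GFP-high than in GFP-low (8.21 to 21.7), and 12% of this change in log2 lay in the first step, against 39.8% for Atp8b2.

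**Figure D1:**
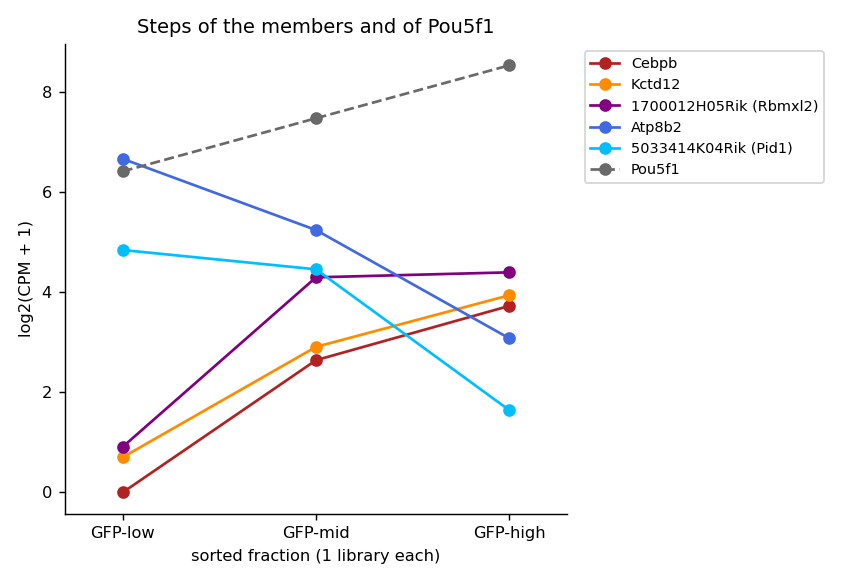
Level of each gene and of Pou5f1 as log2(CPM + 1) in the 3 sorted fractions, 1 library each. Rbmxl2 made nearly all of its change between GFP-low and GFP-mid and Pid1 between GFP-mid and GFP-high, while Pou5f1 (dashed) had steps of 1.06 and 1.05.

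A gene was called different where the log2 ratio of CPM + 1 was at least 1 in size, that is 2-fold. From low to mid 4 of the 5 were called, where 4.07% of all 14301 genes were; from mid to high 4 were, where 2.85% were; and from low to high all 5 were, where 9.54% were. Ordered genes at least 2-fold higher in GFP-high made up 5.99% of those kept and ordered genes at least 2-fold lower 2.13%. Nothing is read from these counts, since the genes were selected on the same libraries. Among 2666 genes ordered upward with at least 50 counts in their higher library, Cebpb, Rbmxl2 and Kctd12 ranked 2, 3 and 4 by log2 ratio (3.72, 3.48 and 3.24). Ott stood just before them at 3.89 and Cdkn1c just after at 3.20. Among 3380 ordered downward, Atp8b2 ranked 3 (-3.59) and Pid1 ranked 5 (-3.19). The falling genes around them were Mpeg1 (-3.78), Lcn2 (-3.77), F13a1 (-3.57) and Lilrb3 (-3.15).

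Markers of other cells moved with the sort. The summed level of 14 myeloid markers was 1843 CPM in GFP-low, 1631 in GFP-mid and 221 in GFP-high, against 8.55 to 44.2 CPM in the other 9 libraries, where 3 to 10 of the 14 were at 0 counts. No marker was at 0 in GFP-low or GFP-mid and 1, Cx3cr1, was at 0 in GFP-high. Of the 12 myeloid markers kept, 11 were called lower in GFP-high than in GFP-low. Some of them, such as F13a1, Mpeg1, Tyrobp and Csf1r, were under 1 CPM in all 9 other libraries. They passed the filter through the sorted libraries alone, so nothing is read from this count. Over all 14301 genes 993 were called higher in GFP-high than in GFP-low and 371 lower. Of the 12 fibroblast markers 6 were called higher in GFP-high and none lower, while Pdgfra, Postn, Lum and Vim had log2 ratios of -0.44 to -0.22. The fibroblast sums were 95.5, 127 and 211 CPM in the 3 fractions, of which Col1a1 made 22.2, 50.9 and 104 CPM. Sums for Sertoli cells (303, 288 and 288 CPM), Leydig cells (6.27, 10.3 and 10.9), peritubular myoid cells (2.38, 3.72 and 4.35) and endothelium (15.0, 16.2 and 17.9) differed less in CPM. The Sertoli sum was mostly Ctsl (294, 277 and 277 CPM) and the Leydig sum mostly Star. Of 7 kept Sertoli genes Sox9 (1.06), of 3 myoid genes Myh11 (1.01) and of 3 endothelial genes Tek (1.42) were called higher in GFP-high than in GFP-low. The endothelial gene Kdr was called lower (-1.62), and 9.54% of all genes were called. The 10 germ-cell markers, including Ddx4 and Dazl, were detected in every library, with sums of 3002 to 4647 CPM, and Nanos2 alone among them was called lower in GFP-high (log2 ratio -1.20). In bulk RNA, fewer cells of a type and less RNA per cell cannot be told apart, and the part of the myeloid and fibroblast markers in the levels of the 5 genes was not tested.

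Over the 9 libraries outside the sort, which the choice of genes did not use, Atp8b2 had the widest span and Cebpb the narrowest, Pid1 aside. Atp8b2 ranged from 4.28 CPM to 102 CPM (23.9-fold), Rbmxl2 from 1.79 to 25.4 (14.2-fold), Kctd12 from 0.508 to 3.76 (7.40-fold) and Cebpb from 1.71 to 7.97 (4.66-fold). Pid1 ranged from 0.469 to 7.24 CPM, and its place among these spans is uncertain because the lowest value rests on 2 counts. Compared per length, in TPM, Rbmxl2 or Atp8b2 was the most abundant of the 5 in 11 of the 12 libraries. The exception was day 0, led by Cebpb at 8.36 TPM. Kctd12 was the least abundant in 9 libraries and never passed 4.32 TPM.

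**Figure D2:**
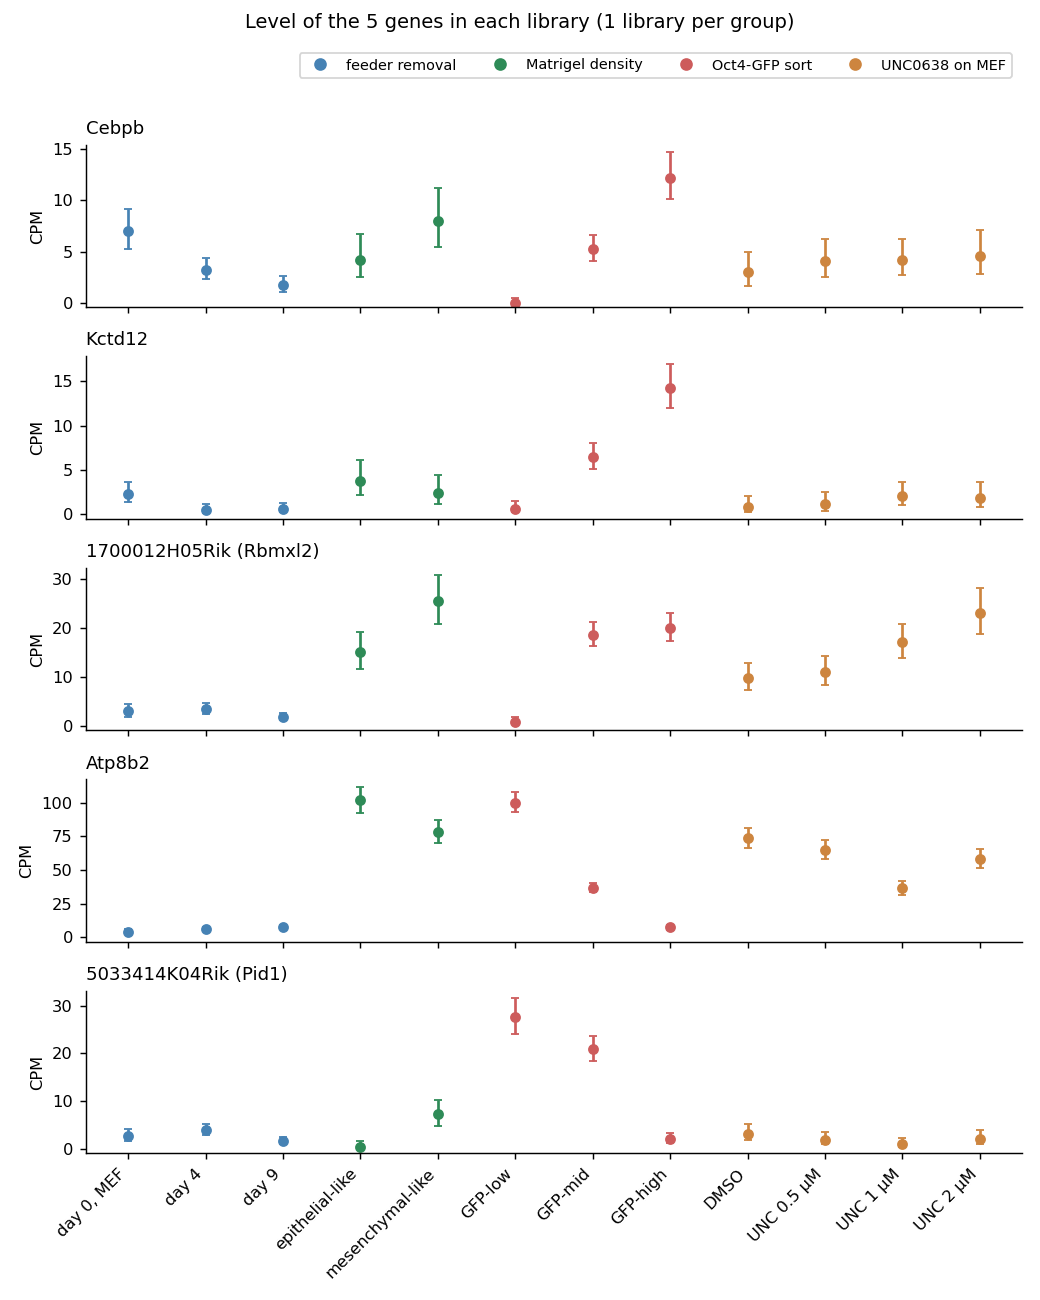
CPM of each gene in the 12 libraries, coloured by experiment, with bars for 95% Poisson counting intervals (1 library per group, linear axes from 0). Atp8b2 was near 100 CPM in the epithelial-like and GFP-low libraries and under 8 CPM in the feeder-removal series and GFP-high.

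After feeder removal, Cebpb and Kctd12 were lower than on feeders. Cebpb was at 54 counts (7.00 CPM, 8.36 TPM) at day 0, 38 counts (3.22 CPM, 3.89 TPM) at day 4 and 21 counts (1.71 CPM, 2.22 TPM) at day 9. It was 2.18-fold lower at day 4 (1.41 to 3.39; log2 ratio -0.92) and 4.10-fold lower at day 9 (2.43 to 7.14; log2 ratio -1.56), and day 9 lay below day 4 by 1.88-fold (1.08 to 3.38). Its day 9 ratio was at percentile 0.2 of all genes. Kctd12 was at 18 counts (2.33 CPM, 0.640 TPM) at day 0, 6 counts (0.508 CPM, 0.140 TPM) at day 4 and 8 counts (0.651 CPM, 0.190 TPM) at day 9. It was 4.60-fold lower at day 4 (1.75 to 14.1) and 3.59-fold lower at day 9 (1.48 to 9.53), with log2 ratios of -1.14 and -1.01, and days 4 and 9 did not differ beyond counting error. Both days share the day 0 library. Fibroblast markers summed to 198, 176 and 199 CPM at days 0, 4 and 9. Peritubular myoid markers summed to 50.2, 63.4 and 11.1 CPM, a sum made mostly of Acta2 (45, 59.0 and 6.92 CPM). Cnn1, which averaged under 1 CPM, was lower at day 9 too, at 2.72, 3.05 and 0.244 CPM (log2 ratio -1.58). At day 9 Des stood at a log2 ratio of 0.88 and Myh11 at -0.03. The part of cells that make Acta2 in the day 9 ratios was not tested.

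The other 3 genes stayed within 2-fold of day 0. Rbmxl2 was at 23, 40 and 22 counts (2.98, 3.39 and 1.79 CPM; 3.65, 4.20 and 2.39 TPM) at days 0, 4 and 9. These levels were low beside the 9.78 to 25.4 CPM of the Matrigel density and inhibitor libraries. Atp8b2 was at 33, 69 and 92 counts (4.28, 5.84 and 7.48 CPM; 1.25, 1.72 and 2.38 TPM), and day 9 exceeded day 0 by 1.75-fold (1.16 to 2.69). Pid1 was at 21, 47 and 20 counts (2.72, 3.98 and 1.63 CPM; 1.79, 2.65 and 1.17 TPM), and its intervals against day 0 included no change. From day 4 to day 9, Pid1 was 2.44-fold lower (1.42 to 4.36) and Rbmxl2 1.89-fold lower (1.10 to 3.34). At day 4, 1 of the 5 genes was called, where 2.28% of all genes were, and at day 9, 2 of the 5, where 2.60% were. The Kctd12 calls were lost with the deposited TPM in place of CPM, at log2 ratios of -0.52 and -0.46. Without a pseudocount, days 0 and 4 were 4.57-fold apart in TPM and 4.60-fold apart in CPM. With a pseudocount of 5 the Kctd12 calls were lost as well, at -0.41 and -0.38, and the Cebpb day 9 ratio was -0.84.

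Between Matrigel densities, Pid1 differed most. It was at 2 counts (0.469 CPM, 0.280 TPM) in the epithelial-like library, its lowest of 12, and 30 counts (7.24 CPM, 4.17 TPM) in the mesenchymal-like library, its highest outside the sort. The ratio was 15.4-fold with a wide interval of 3.92 to 133, and the log2 ratio of 2.49 stood at percentile 96.5 of all genes. Both libraries stood apart from the sorted ones in myeloid markers, which summed to 24.2 and 44.2 CPM. The fibroblast markers summed to 281 CPM in the epithelial-like and 6192 CPM in the mesenchymal-like library. Acta2, a smooth muscle actin of peritubular myoid cells that fibroblasts also make, went from 2.11 to 189 CPM, and Ctsl, listed as a Sertoli marker, from 233 to 617 CPM. In the mesenchymal-like library Acta2 and Ctsl made up nearly all of the sums of their lists, 193 and 655 CPM. The myoid gene Des (log2 ratio 1.18) and the Sertoli gene Sox9 (2.06, from 4.69 to 22.7 CPM) were called higher as well. The other genes of these lists stayed within 2-fold. Among them Myh11 (-0.20), Gata4 (-0.17), Cldn11 (-0.39) and Inha (-0.48) rested on at most 6 counts in either library. The part of these genes in the Pid1 difference was not tested.

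Atp8b2 was abundant at both densities, with 435 counts (102 CPM, 27.1 TPM) in the epithelial-like and 324 counts (78.2 CPM, 19.9 TPM) in the mesenchymal-like library, 1.31-fold lower in the latter (1.13 to 1.51). Rbmxl2 was at 64 counts (15.0 CPM, 16.6 TPM) and 105 counts (25.4 CPM, 27.1 TPM), 1.69-fold higher in the mesenchymal-like library (1.23 to 2.34). Cebpb was at 18 counts (4.22 CPM, 4.56 TPM) and 33 counts (7.97 CPM, 8.32 TPM), 1.89-fold higher (1.03 to 3.56). Kctd12 was at 16 counts (3.76 CPM, 0.940 TPM) and 10 counts (2.41 CPM, 0.580 TPM), with an interval that included no change. Thus 1 of the 5 was called, in a comparison where 12.5% of all genes were.

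The mesenchymal-like library came from the same Matrigel density as the sorted fractions but was not sorted, and the 5 genes did not place it at one point of the GFP order. Rbmxl2, at 25.4 CPM, was 28.9-fold above GFP-low (13.5 to 73.6) and 1.27-fold above GFP-high (0.991 to 1.62). Atp8b2, at 78.2 CPM, lay between GFP-low and GFP-mid, 1.28-fold below the first (1.13 to 1.46) and 2.13-fold above the second (1.85 to 2.46). Kctd12 lay between GFP-low and GFP-mid, and Pid1 between GFP-high and GFP-mid. Cebpb lay 1.53-fold below GFP-high (1.03 to 2.33) and was not apart from GFP-mid beyond counting error, at 1.52-fold (0.972 to 2.35). The libraries also differed in markers of other cells. The fibroblast sum was 6192 CPM in the mesenchymal-like library against 95.5 to 211 in the fractions, Acta2 was at 189 CPM against 0.0792 to 1.63, and the myeloid sum was 44.2 CPM against 221 to 1843, and their part in these positions was not tested.

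With UNC0638, Rbmxl2 was higher at each higher dose. It was at 49 counts (9.78 CPM, 12 TPM) with DMSO, 57 (11.0 CPM, 13.4 TPM) at 0.5 µM, 98 (17.1 CPM, 20.6 TPM) at 1 µM and 101 (23.1 CPM, 27.6 TPM) at 2 µM. Against DMSO the ratios were 1.12-fold (0.752 to 1.68), 1.75-fold (1.23 to 2.52) and 2.37-fold (1.67 to 3.40). The step from 0.5 to 1 µM was 1.56-fold (1.11 to 2.20) and that from 1 to 2 µM 1.35-fold (1.01 to 1.80). At 2 µM its 23.1 CPM lay near the 20.0 CPM of GFP-high, with overlapping intervals, and its log2 ratio of 1.16 was at percentile 97.9 of all genes.

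Atp8b2 was at 368 counts (73.5 CPM, 21.4 TPM) with DMSO, 339 (65.3 CPM, 19.0 TPM) at 0.5 µM, 209 (36.5 CPM, 10.5 TPM) at 1 µM and 255 (58.4 CPM, 16.6 TPM) at 2 µM. It was lowest at the middle dose, 2.01-fold below DMSO (1.69 to 2.40), and 2 µM lay 1.60-fold above 1 µM (1.33 to 1.93), so its level did not follow the dose. Pid1 was at 16, 10, 6 and 9 counts (3.19, 1.93, 1.05 and 2.06 CPM; 2.11, 1.27, 0.680 and 1.32 TPM) in the same order. Its lowest count too was at 1 µM, 3.05-fold below DMSO (1.13 to 9.52; log2 ratio -1.03), while the doses did not differ from each other beyond counting error.

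Cebpb was at 15, 21, 24 and 20 counts (2.99, 4.04, 4.19 and 4.58 CPM; 3.58, 4.82, 4.94 and 5.33 TPM) and Kctd12 at 4, 6, 12 and 8 counts (0.798, 1.16, 2.09 and 1.83 CPM; 0.220, 0.320, 0.570 and 0.490 TPM) with DMSO and 0.5, 1 and 2 µM. For both genes the intervals against DMSO included no change at every dose. None of the 5 genes was called at 0.5 µM, where 3.71% of all genes were, 1 at 1 µM (Pid1, lower), where 6.71% were, and 1 at 2 µM (Rbmxl2, higher), where 7.01% were. Atp8b2 at 1 µM fell just short of a call at a log2 ratio of -0.99. The Pid1 call was lost with the deposited TPM, and both calls were lost with a pseudocount of 5.

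At each of the 3 doses the ratio of all 5 genes had the sign it had in the sort, but most of these ratios did not exceed counting error. The interval excluded no change for Rbmxl2 and Atp8b2 at 1 and 2 µM and for Pid1 at 1 µM, and included it for the rest. The doses share the DMSO library and are not separate evidence. Of all 14301 genes, 51.2% had the same sign as in the sort at 0.5 µM, 54.2% at 1 µM and 61.5% at 2 µM. Among the 1160 genes ordered and at least 2-fold apart in the sort, the shares were 54.9%, 67.1% and 71.6%. Outside the inhibitor experiment the sign was shared by 1 of 5 at day 4, 1 of 5 at day 9 and 3 of 5 in the mesenchymal-like library, where 48.1%, 52.3% and 54.4% of all genes and 52.5%, 46.6% and 58.8% of the 1160 shared it. Fibroblast markers summed to 2604 CPM with DMSO and to 831, 367 and 470 CPM at the rising doses, and their part in these signs was not tested. Pou5f1 stayed within 2-fold of DMSO, at 43.9 CPM with DMSO and 43.5 to 54.1 CPM with UNC0638.

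**Figure D3:**
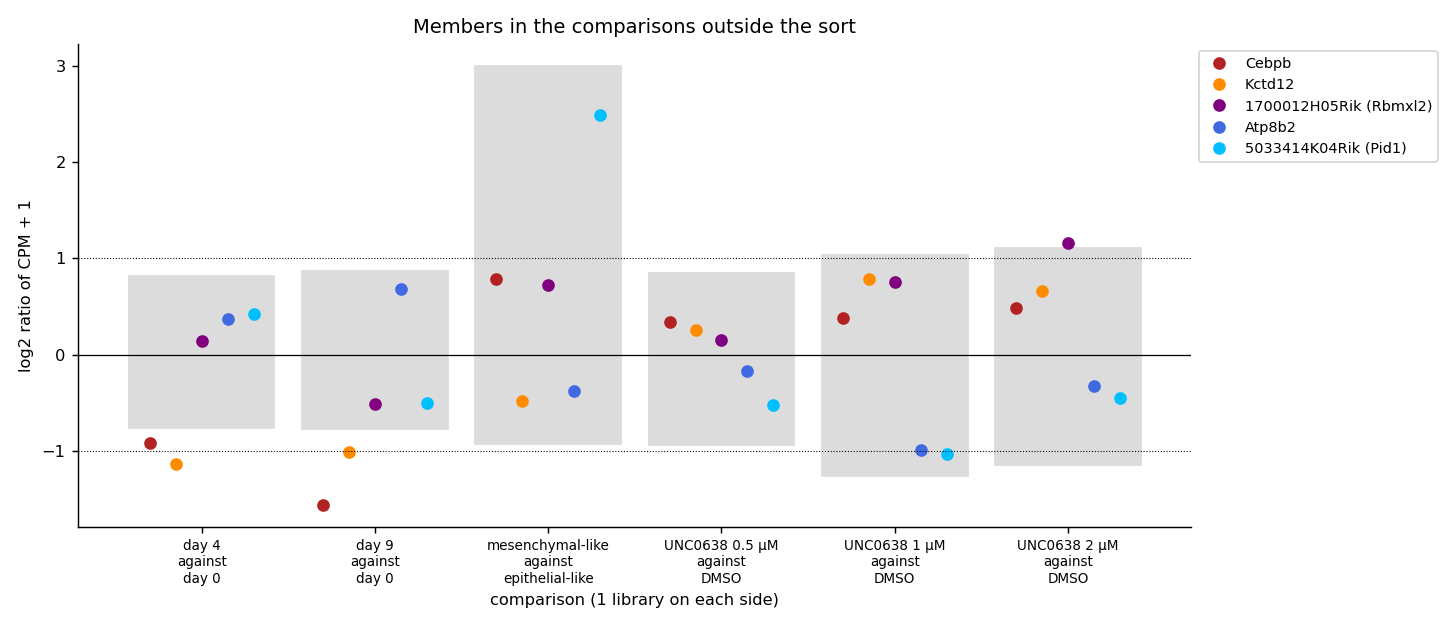
Log2 ratio of CPM + 1 for each gene in the 6 comparisons outside the sort, 1 library on each side; grey bands hold the central 95% of all 14301 genes and dotted lines mark 2-fold. Cebpb and Kctd12 lay below the band at days 4 and 9, and Rbmxl2 lay above it at 2 µM UNC0638.

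The feeder cultures without inhibitor of 2 experiments, day 0 and the solvent control DMSO, differed widely in 3 of these genes. The level of Atp8b2, 4.28 CPM at day 0, was 17.2-fold higher with DMSO, at 73.5 CPM (interval 12 to 25.3), and Rbmxl2 was at 2.98 and 9.78 CPM, 3.28-fold apart (1.96 to 5.64). Cebpb was 2.34-fold lower with DMSO (1.30 to 4.46). Of the 5 genes 3 were called between these libraries, where 19.4% of all genes were. The fibroblast sum of the DMSO library, 2604 CPM, also exceeded that of day 0, 198 CPM. No group was shared by any experiments, so experiment, batch and culture cannot be told apart, which limits any reading of levels across experiments.

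The counts of relatives called in GFP-high against GFP-low stand beside 9.54% of all genes, and nothing is read from them. In the C/EBP family 6 of 7 genes were kept, and 1 of the 5 other than Cebpb was called. Cebpa, a paralogue with its own role in myeloid and fat cells, was at 1.76, 6.49 and 10.1 CPM from the low to the high fraction (log2 ratio of high to low 2.01). Cebpd, Cebpg, Cebpz and Ddit3 stayed within 2-fold, and the median log2 ratio of the 5 was 0.65. None of 11 kept genes of the IL6 and STAT3 route that induces Cebpb in other cells, among them Il6st, Jak1, Stat3 and Socs3, was called in GFP-high against GFP-low. Their median was -0.14, and the largest ratio was that of Osmr, a receptor of oncostatin M, at 0.627 and 2.23 CPM (log2 ratio of CPM + 1 0.99).

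Genes described elsewhere as C/EBP targets went both ways in the sort, 2 called higher and 4 lower of 11 kept in GFP-high against GFP-low, where 9.54% of all genes were called, with a median of -0.20. The myeloid sum, 1843 CPM in GFP-low and 221 CPM in GFP-high, was lower in GFP-high too. The lower genes included Lcn2 (56.0, 24.3 and 3.18 CPM), an iron-scavenging protein of neutrophils. They also included the acute-phase genes Saa3 (162, 213 and 16.9 CPM) and Hp (45.3, 41.2 and 4.25 CPM). Among the fractions these were thus highest where Cebpb was undetected or intermediate. With DMSO, Lcn2, Saa3 and Hp were at 131, 421 and 161 CPM, while the myeloid sum lay below that of every fraction. In the feeder-removal and Matrigel density libraries, where that sum was also below every fraction, these genes stayed under their GFP-low levels. The part of the myeloid sum in the lower genes was not tested. Gadd45a and Cxcl1 were the higher ones, at log2 ratios of 1.00 and 1.05. In the mesenchymal-like against the epithelial-like library 7 of the 11 were called higher, where 12.5% of all genes were called, including Ccl2 (5.26), and Cebpd was higher by 3.41. The fibroblast sum moved with them, from 281 to 6192 CPM, and its part was not tested. Over all 14301 genes the median log2 ratio was -0.02 in the sort and -0.06 between Matrigel densities.

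Kctd12 binds the GABA-B receptor, which is built from the Gabbr1 and Gabbr2 proteins. Of 10 genes for the GABA-B receptor, its KCTD subunits and its potassium channel partners, Gabbr1 and Kctd12 alone were kept. Gabbr1 was at 4.01, 6.89 and 7.32 CPM in the 3 fractions, and Gabbr2, needed for a functional receptor, averaged under 1 CPM. Of 16 other KCTD genes kept, 1 was called in GFP-high against GFP-low, Kctd6, at 8.28, 18.5 and 36.7 CPM (log2 ratio 2.02), with a median over the 16 of 0.09. In GFP-mid against GFP-low, where 4.07% of all genes were called, 3 of the 16 were, Kctd2 (1.16), Kctd6 (1.07) and Kctd17 (1.01).

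Among P4-ATPases and their subunits, Atp8b2 was the only one of 14 kept genes called lower in GFP-high. Of the 13 others, Atp10a (2.76, 6.34 and 14.0 CPM) and Atp11a (9.78, 18.0 and 24.4 CPM) were higher, at log2 ratios of 2.00 and 1.24. Tmem30a, the subunit that most of these pumps need to leave the endoplasmic reticulum, was at 113, 99.8 and 88.3 CPM. In the feeder-removal series 1 of the 14 was called at each day, where 2.28% (day 4) and 2.60% (day 9) of all genes were: Atp10d, at 0.907, 5.92 and 6.59 CPM on days 0, 4 and 9. Of 5 kept phospholipid scramblases, which let lipids cross the bilayer without ATP, none was called in GFP-high against GFP-low and 1, Plscr1 (11.1 CPM in GFP-mid and 5.02 in GFP-low, log2 ratio 1.01), in GFP-mid against GFP-low, where 4.07% of all genes were.

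**Figure D4:**
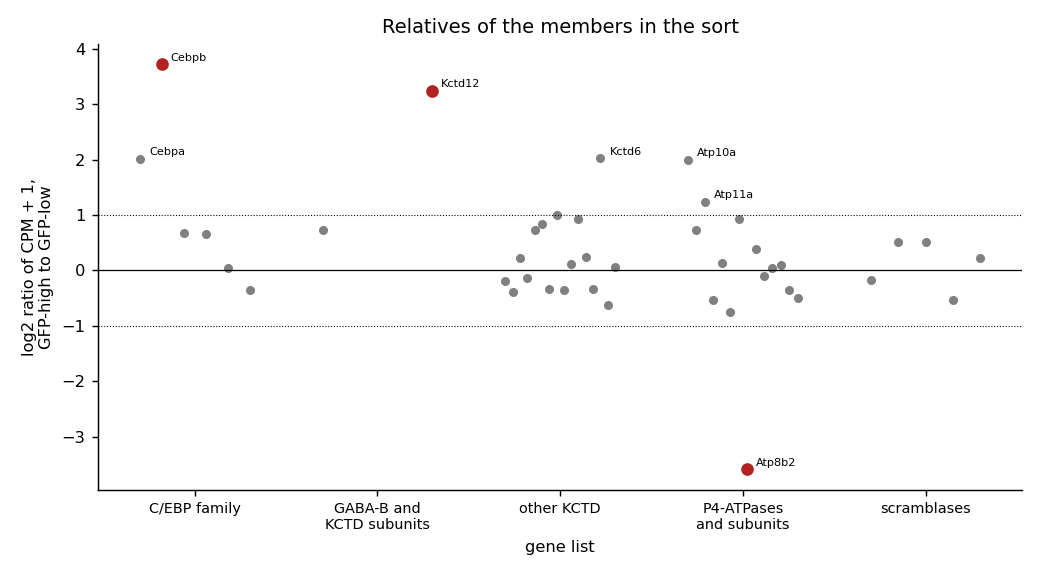
Log2 ratio of CPM + 1 in GFP-high against GFP-low for the kept genes of the C/EBP, GABA-B and KCTD, other KCTD, P4-ATPase and scramblase lists, members in red and other genes in grey, with dotted lines at 2-fold. Most relatives lay within 2-fold while Cebpb, Kctd12 and Atp8b2 lay at 3.72, 3.24 and -3.59.

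The genes closest to each member were taken as those with the highest Pearson correlation of log2(CPM + 1) over the 12 libraries, as a description over libraries that include the sort and differ in experiment and depth. Atp8b2 was followed by Zfp384, D330037H05Rik and Hnrpa1 (all 0.97), Gfra1 and Fubp3 (both 0.96). Gfra1, the GDNF co-receptor, was at 176, 79.9 and 58.5 CPM from the low to the high fraction, at 35.2 to 42.9 CPM in the feeder-removal series and at 97.4 to 139 CPM in the Matrigel density and inhibitor libraries. Over the 9 libraries outside the sort the correlation of Atp8b2 with Gfra1 was 0.98, with the feeder-removal series lying apart from the other libraries in both genes.

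Pid1 was followed by Sepp1, Trem2, Fcer1g, Unc93b1 and Tlr13 (0.91 to 0.93). Trem2 and Fcer1g, receptor components of macrophages, were at 6.90 and 44.0 CPM in GFP-low and at most 0.966 and 3.62 CPM in the 9 unsorted libraries. Fcer1g is also one of the 14 myeloid markers. Over the 9 libraries outside the sort Pid1 stood at 0.79 with Sepp1, 0.72 with Fcer1g and 0.64 with Unc93b1. Trem2 was at 0 counts in 7 and Tlr13 in 6 of these 9, so no value is given for them. Its lowest and highest unsorted libraries, 0.469 and 7.24 CPM, had summed myeloid levels of 24.2 and 44.2 CPM.

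**Figure D5:**
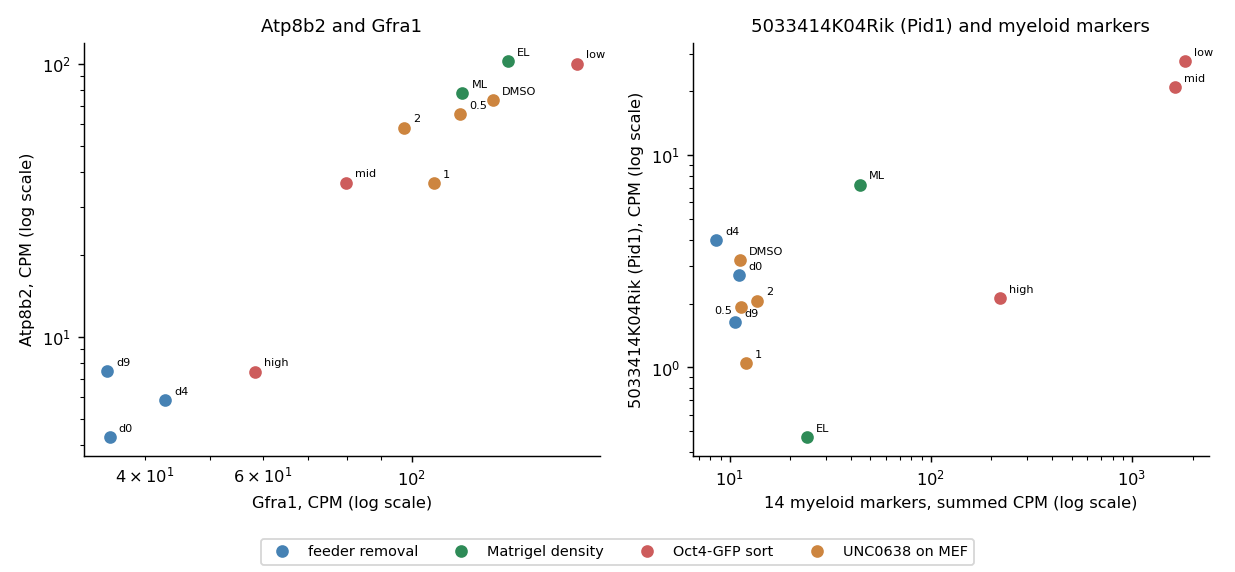
Left, Atp8b2 against Gfra1; right, Pid1 against the summed CPM of 14 myeloid markers; each point is 1 of 12 libraries, all axes are logarithmic, and colours give the experiment (d0 to d9, days of feeder removal; EL and ML, epithelial-like and mesenchymal-like; bare numbers, µM UNC0638). Atp8b2 and Gfra1 were low together in the feeder-removal series, and the myeloid sum passed 221 CPM in GFP-low and GFP-mid alone.

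Cebpb was followed by Sart1 (0.91), Suds3 (0.90), Oxsm (0.87), Actr5 and Cited2 (both 0.86). Sart1, a splicing factor, was at 31.8, 111 and 159 CPM in the 3 fractions, and Actr5, a chromatin remodelling subunit, at 1.50, 10.9 and 20.6 CPM. Kctd12 was followed by Ust (0.94), Btg3, Neto2 (both 0.93), Stk24 and Id4 (both 0.91). Id4, an inhibitor of basic helix-loop-helix factors that marks spermatogonial stem cells, was at 6.65, 21.5 and 24.2 CPM. Rbmxl2 was followed by Sfrs9 (0.95), 2210412D01Rik, Rad23b, EG666938 and Eid2 (all 0.94), and Sfrs9, an SR splicing factor, was at 67.3, 119 and 134 CPM. Over the 9 libraries outside the sort these correlations were 0.74, 0.73, 0.83, 0.44 and 0.57 for Cebpb in the order named, 0.82, 0.82, 0.84, 0.69 and 0.75 for Kctd12, and 0.96, 0.94, 0.98, 0.99 and 0.94 for Rbmxl2. The likeness of Actr5 and Cited2 to Cebpb was thus much lower without the fractions.

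Among the members themselves, Cebpb correlated with Rbmxl2 at 0.72 and with Kctd12 at 0.71, and Atp8b2 with Pid1 at 0.20, over the 12 libraries. Over the 9 libraries outside the sort, Atp8b2 with Pid1 stood at -0.14, Cebpb with Kctd12 stood at 0.70 and Cebpb with Rbmxl2 at 0.50. Rbmxl2 and Atp8b2, which ran in opposite directions in the sort, stood at 0.88 in those 9, with both low in the feeder-removal series and higher in the Matrigel density and inhibitor libraries.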

How the data were processed

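RNA from 12 samples of cultured cells was made into libraries by a modified Smart-seq2 procedure, per the labels' protocols, and the submitters' processing notes name Trim Galore, RSEM and the mouse build mm10. The authors deposited 1 table per library, per the file headers with an expected count and a TPM for each of 27128 genes. The deposited expected counts are RSEM estimates, not normalized, and ranged from 4335185 to 12019651 per library, so 3 counts equalled 0.238 to 0.724 CPM. The deposited TPM were scaled by the authors for transcript length and to a fixed library total, per the file headers. FPKM and the 4 ATAC-seq samples were not analysed here. Whether counting used strand is not given in the sources used here.

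Expected counts were rounded to whole numbers and scaled to CPM with TMM factors (0.912 to 1.074) from edgeR 4.0.16. Genes averaging at least 1 CPM were kept. Ratios were log2 of CPM + 1, which understates the change of low genes, and called at 2-fold or more. Calls and counts of genes at least 2-fold apart use CPM + 1. Other folds in the text carry no pseudocount, with 95% exact (Clopper-Pearson) limits from how reads divide over the libraries, and 95% Poisson intervals for single levels. As reads carry no molecular identifiers, intervals cover counting error only. Against 0 counts the fold was computed with 3 counts and is a lower bound. With 1 library per group no p-value was computed.

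The named genes are the 5 members, genes of lists fixed for the members' families and for cell types, neighbours by rank, and the 5 genes most like each member. The members and lists were chosen with earlier results of these data known. Deposited names were matched to RefSeq GRCm38.p6 by transcript, symbol or synonym, with 5863 genes unmatched. The steps were tested on simulated data. Alternatives were DESeq2 1.42.0 size factors, total counts, pseudocounts of 0.1 and 5, deposited TPM, 10 CPM or nothing as the filter, the whole 300-base promoter, and likeness by Spearman correlation or over 9 libraries.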

Additional observations from a re-analysis of the deposited data

How the results depend on the processing

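Of 288 ratios of the 5 genes recomputed under 7 settings, none changed sign and 29 moved beyond the counting interval on the CPM + 1 scale, 13 of them with a pseudocount of 5, 9 with 0.1, 5 with the deposited TPM and 2 with total counts. The log2 ratio of Cebpb in GFP-high against GFP-low, 3.72 with a pseudocount of 1, was 1.78 with 5 and 6.94 with 0.1. Counts of members called changed as follows. With a filter of 10 CPM, which keeps Rbmxl2 and Atp8b2, 2 members were called in GFP-mid against GFP-low, 1 in GFP-high against GFP-mid, 2 in GFP-high against GFP-low, and 0 at day 4, at day 9, between Matrigel densities and at 1 µM UNC0638. With a pseudocount of 5, 2 were called in GFP-high against GFP-mid and 0 at day 4, day 9, 1 µM and 2 µM. With a pseudocount of 0.1, 2 were called at day 4, 3 at 1 µM and 2 at 2 µM. With deposited TPM, 3 in place of 4 were called in GFP-high against GFP-mid, 0 at day 4, 1 at day 9 and 0 at 1 µM, and with DESeq2 size factors 2 at 1 µM.

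The number of genes called of all those kept also depended on these choices. For GFP-mid against GFP-low, GFP-high against GFP-mid and GFP-high against GFP-low it was 582, 407 and 1364, against 182, 98 and 521 with a pseudocount of 5, 1267, 928 and 2150 with 0.1, and 280, 100 and 622 with the 10 CPM filter. For days 4 and 9 it was 326 and 372, against 17 and 30, 1031 and 1025, and 29 and 84 in the same order of settings. Between Matrigel densities it was 1781, against 1004 with a pseudocount of 5 and 680 with the filter. For 0.5, 1 and 2 µM UNC0638 it was 531, 960 and 1003, against 76, 302 and 228 with a pseudocount of 5, 1169, 1656 and 1751 with 0.1, and 96, 303 and 285 with the filter. The 5 genes listed as most like a member shared 0 or 1 with those found by Spearman correlation or over 9 libraries. No paired analysis was possible because each group held 1 library. For the same reason no replicate could be left out. Depth limits the low values most: Cebpb, Kctd12 and Pid1 rested on at most 54 counts outside the sort.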
